A study of Strongylocentrotus purpuratus with 8 samples.

Results

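The Wnt receptors, secreted antagonists and destruction complex components on a 2-colour array of the purple sea urchin, Strongylocentrotus purpuratus, were followed in embryos in which the Runx transcription factor SpRunt-1 was knocked down. The members were chosen by name: every array target labelled Sp-Friz, Sp-sFRP, Sp-Axin or DICKKOPF, and the target labelled Glycogen_synthase_. This gave 7 targets with 14 probes among the 6414 targets and 12696 probes of the array. Of these, 6 targets with 12 probes were bright enough to test, among 5481 tested targets and 9563 tested probes. The names are those of the array files, where Sp-Friz and Sp-sFRP each label 2 different gene models. These are told apart below by the last 5 digits of the model, so that Sp-Friz 03655 and Sp-Friz 22916 are Frizzled targets and Sp-sFRP 04062 and Sp-sFRP 11271 are secreted Frizzled-related targets.

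The morphants had received as zygotes a splice-blocking morpholino antisense oligonucleotide (MASO) against SpRunt-1, and came from 4 embryo cultures of different wild mating pairs, with 3600 embryos in each. The control was 1 pool of about 14400 untreated embryos from the same cultures. Both were taken at the hatched blastula stage, 18 h after fertilization at 15 °C. The RNA of every culture shared 2 arrays with the pool, once in each dye, so that 8 arrays gave 4 cultures. The controls were untreated, not injected with another oligonucleotide, so injection and loss of SpRunt-1 cannot be told apart. A test of 4 ratios against 1 pool also leaves out the spread of the control embryos themselves.

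Wnt ligands bind Frizzled receptors at the cell surface and, through Dishevelled, stop a destruction complex from marking β-catenin for degradation. Axin is the scaffold of that complex and glycogen synthase kinase 3 (GSK-3) is its main kinase, while secreted Frizzled-related proteins (sFRPs) bind Wnt ligands outside the cell. In the sea urchin embryo, β-catenin enters the nuclei of the vegetal cells and is needed there for endoderm and mesoderm, and Wnt signals later restrict the anterior neuroectoderm. The comparison asks how the RNAs of these receptors, antagonists and complex components stood in SpRunt-1 morphants.

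Of the 6 measured members 1 fell, 0 rose and 5 did not pass the test. The one that fell was Sp-sFRP 04062, a secreted antagonist, at 0.664 times the control pool (mean log2 ratio -0.59 ± 0.14, SD, n = 4). This call rests on the brighter of its probes, which were nearly equal in mean log2 signal (14.706 and 14.698). The other probe averaged -0.12 and did not pass. Sp-Friz 03655 had the highest mean, 0.38 ± 0.12, and came short of the threshold. Sp-sFRP 11271 (0.11 ± 0.04), Sp-Axin (0.02 ± 0.07) and the brighter probe of Glycogen_synthase_ (0.03 ± 0.17) lay close to 0. Sp-Friz 22916 averaged -0.42 ± 0.44, with a spread as large as its mean. All ratios are log2 of morphant over control pool, and a change was called at a limma p of less than 0.05 after Benjamini-Hochberg adjustment over all tested targets.

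The same rule called 5.00% of all targets, 2.96% as higher and 2.04% as lower, so 1 call among 6 members is not read as a property of the group. At an unadjusted p under 0.05, 2 members passed, 1 in each direction, against 35.3% of all targets. Ratios had 1 sign in all 4 cultures for 3 of the 6 members and for 44.3% of all targets. The median over the members was 0.02 and over all targets -0.02. Within single cultures the median over the members ran from -0.03 to 0.11. The members' median SD between cultures was 0.131, against 0.239 over all targets. This is not read as closer agreement between cultures, because Sp-Friz 03655, Sp-sFRP 11271 and Sp-Axin were dim. A constant added to both channels before the log2 was taken narrows the ratios of dim spots. The SDs of these targets' brighter probes, in that order, were 0.12, 0.04 and 0.07 with the constant. Without it they were 0.27, 0.09 and 0.24. In whole embryos, fewer cells that express a gene and less RNA per cell cannot be told apart.

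**Figure D1:**
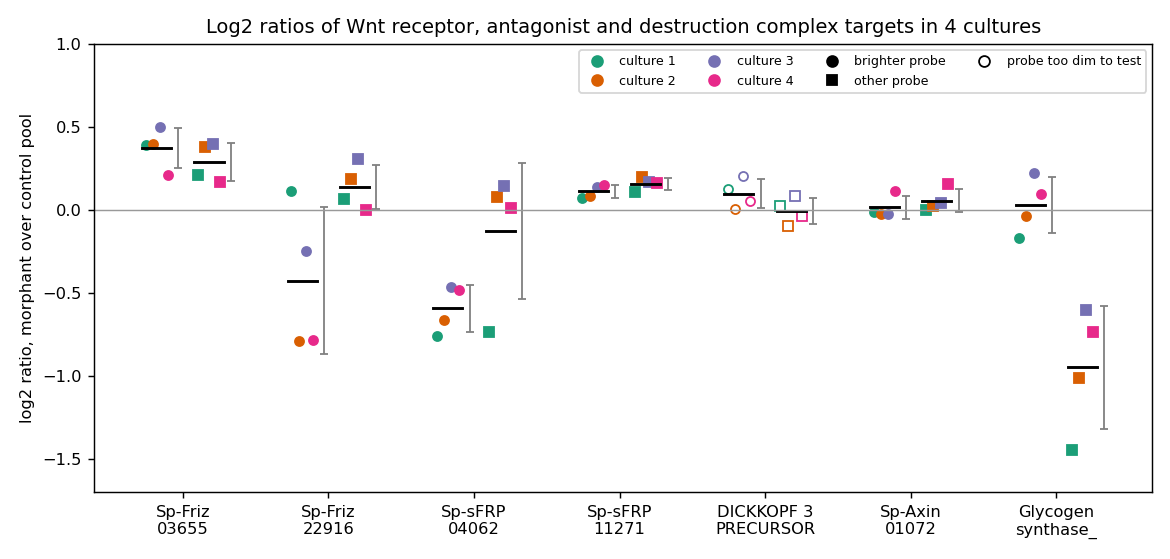
Log2 ratio of morphant over control pool (vertical axis) for both probes of each of the 7 targets; each point is 1 culture, the mean of 2 dye-swapped arrays, the black line is the mean of 4 cultures and the grey bar its SD. Both Sp-Friz 03655 probes lie above 0 in all 4 cultures, and the brighter Sp-sFRP 04062 probe and the dimmer Glycogen_synthase_ probe lie below 0 in all 4.

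The arrays were checked first on Runt itself. One Sp-Runt probe averaged -0.18 ± 0.27 (adjusted p = 0.345, limma) and the other -0.20 ± 0.09, below 0 in 4 of 4 cultures (adjusted p = 0.119 among all probes). Blocking a splice site can leave the total amount of a transcript as it was, and where these probes lie in the transcript is not given, so they do not measure the knockdown. Depending on the array, 60.8% to 79.5% of probes were well above background in the morphant channel and 51.5% to 77.1% in the control channel. The dye-swapped arrays of 1 culture correlated at 0.898 to 0.958 over probes, and arrays of different cultures at 0.330 to 0.642. Among markers of the stage, 10 of 12 targets for hatched blastula proteases and early-type histones were measured, with 5 means above 0 and 5 below. Of these 2 rose: an early histone H1 by 2.88 and a target named for the blastula protease SPAN by 2.01 on the log2 scale. The other probe of that SPAN target averaged 1.37 and did not pass (adjusted p = 0.0573 among all probes, limma). Other SPAN targets averaged 1.29, 1.27, 0.61 and -0.0038 and did not pass (adjusted p of 0.0563, 0.0588, 0.0672 and 0.979, limma). Another early histone H1 averaged -0.80 (adjusted p = 0.112, limma) and the 50 kDa hatching enzyme -0.72 (adjusted p = 0.120), both below 0 in all 4 cultures. Of 26 targets listed by name as later ectoderm genes 23 were measured, 11 with means above 0 and 12 below. Among them 1 fell, an arylsulfatase B, with a mean of -1.51. Arylsulfatases of every type were listed, and the labels do not settle which of them, this one included, are ectoderm genes. Of 6 listed targets with an unadjusted p under 0.05, which 35.3% of all targets had, 4 were above 0. SPEC 2C averaged 0.83 (adjusted p = 0.0539) and SPEC 2A 0.80 (adjusted p = 0.0678), and their other probes passed among all probes, at 1.21 and 1.39. The histone, SPAN, hatching enzyme and SPEC targets that did not pass are named after their values were seen. The part of these stage markers in the members' ratios was not tested.

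Among the receptors, Sp-Friz 03655 was the member with the highest ratio. Frizzled proteins span the membrane and bind Wnt ligands with a cysteine-rich outer domain. Its brighter probe had log2 ratios of 0.39, 0.40, 0.50 and 0.21 in cultures 1 to 4, all above 0, as it was on all 8 arrays (lowest 0.15, highest 0.53). The mean corresponded to 1.30-fold, with 95% limits of 0.18 and 0.57 on the log2 scale (adjusted p = 0.0569, limma), just outside the threshold. The second probe gave 0.21, 0.38, 0.40 and 0.17, also above 0 on all 8 arrays, with a mean of 0.29 ± 0.12 (adjusted p = 0.0748 among all probes). Both probes thus gave the same sign in every culture, and their difference of 0.09 was not past the test (adjusted p = 0.335).

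The Sp-Friz 03655 spots were dim. After subtraction of the background, the brighter probe's signal in the morphants was 41.8, 76.1, 77.4 and 32.4 intensity units in cultures 1 to 4, against 13.3, 11.9, 9.80 and 8.84 in the control pool on the same arrays. Every one of these morphant signals lay above every control signal, but they were not normalised between the channels. Over all probes the median signal, by array, was 67.3 to 95.5 in the morphant channel and 59.9 to 70.8 in the control channel. The control channel was well above background on 5 of the 8 arrays and the morphant channel on all 8. An offset of 50 units had been added to both channels before the log2 was taken, which draws the ratio of a dim spot towards 0.

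Ratios of Sp-Friz 03655 made in other ways were larger. Agilent's own background-subtracted ratio put the brighter probe at 1.66 (adjusted p = 0.0186), and the same processing with an offset of 0 put it at 1.01 (adjusted p = 0.0267). In the authors' deposited table its mean was 0.46 (adjusted p = 0.0442 in a limma fit to that table). Over all 16 alternatives the mean of this probe stayed above 0, from 0.33 to 1.66, and 4 of them passed the threshold. Not all of them could turn the sign. Changes of filter or variance model leave the mean of a probe as it is. With all 4 cultures above 0, leaving out 1 cannot bring the mean below 0. The size of the difference therefore depended on how the background was handled, and its sign did not in the alternatives run.

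Sp-Friz 22916 differed between its probes. The brighter probe had log2 ratios of 0.12, -0.79, -0.24 and -0.78 in cultures 1 to 4, below 0 in 3 of them, with 95% limits of -0.92 and 0.07 (adjusted p = 0.177, limma). The second probe, whose control channel was well above background on 6 of 8 arrays, gave 0.07, 0.19, 0.31 and 0.0030, with a mean of 0.14 ± 0.13 (adjusted p = 0.250 among all probes). The means of the 2 probes had opposite signs, and their difference of -0.57 (95% interval -1.06 to -0.07) had an adjusted p of 0.153.

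The brighter probe of Sp-Friz 22916 differed between cultures (limma F test on 8 arrays with a dye term, adjusted p = 0.000346). This test sets cultures against technical spread only, and 61.5% of all targets passed it. Of the measured members 2 passed, this one and Glycogen_synthase_. Sp-Friz 03655 did not pass (adjusted p = 0.201), nor did Sp-sFRP 04062 (adjusted p = 0.0942).

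The control signal of this probe also varied, although the same pool was on every array. Its normalised log2 level in the pool was 7.14 and 7.08 on the arrays of cultures 2 and 3 with the morphant in Cy3, and between 8.45 and 8.57 on the other 6 arrays. The morphant level was lowest on those same 2 arrays, at 6.58 and 7.03. With only the arrays that had the morphant in Cy5, which leave those 2 out, the mean ratio was -0.53 (adjusted p = 0.152). With all arrays, median centring and no loess curve, it was 0.0046 (adjusted p = 0.981, limma).

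**Figure D2:**
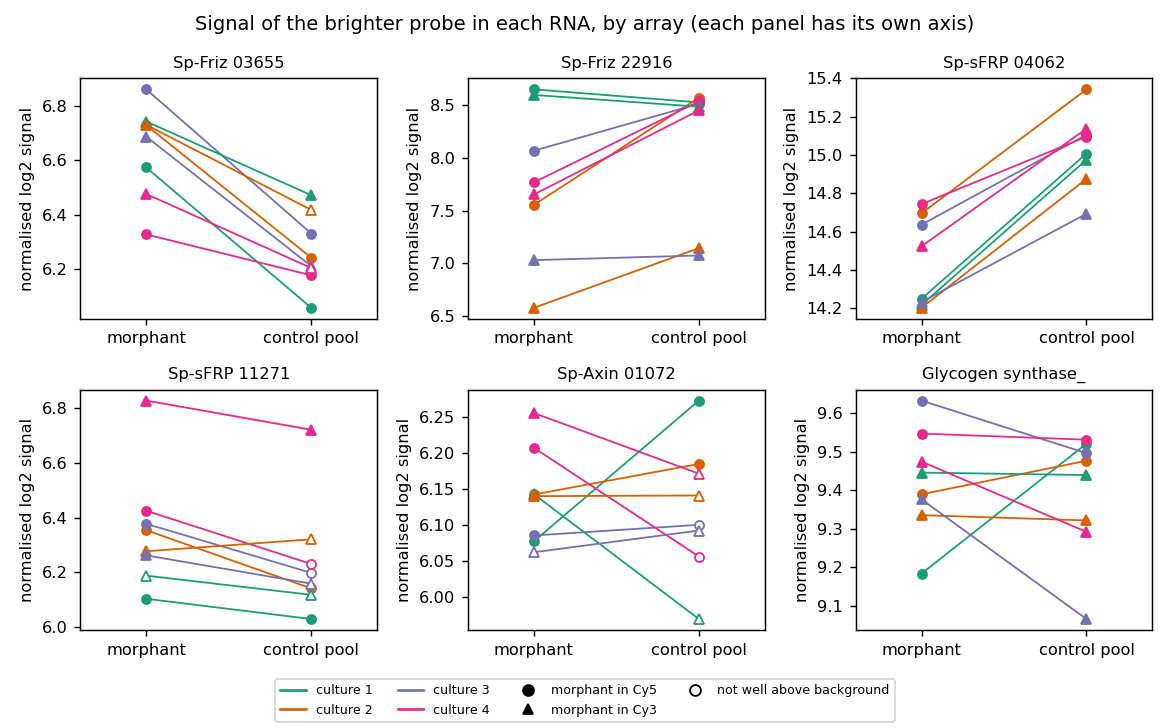
Normalised log2 signal of the brighter probe (vertical axis, a separate scale in each panel) in morphant RNA at the left and the control pool at the right of each panel; each line joins the 2 channels of 1 array, and open symbols mark a channel not well above background. The lines of Sp-Friz 03655 all run down towards the control pool and those of Sp-sFRP 04062 all run up; for Sp-Friz 22916, 2 arrays are low in both channels.

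Of the secreted antagonists, Sp-sFRP 04062 carried the only call. Secreted Frizzled-related proteins share the cysteine-rich domain of the receptors and can keep Wnt ligands from them. Its brighter probe had log2 ratios of -0.76, -0.66, -0.47 and -0.48 in cultures 1 to 4, below 0 in every culture and on all 8 arrays. The 95% interval was -0.80 to -0.38 and the adjusted p was 0.0389 (limma). The mean was -0.56 with the morphant in Cy5 and -0.63 with the morphant in Cy3, so that both dye orientations gave the same sign.

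This RNA was abundant in both samples, with mean signals of 13623 to 44474 in the morphant channel and 17972 to 37531 in the control channel, none saturated. Before normalisation the 2 samples stood in another order. The background-corrected signals were 14220, 33760, 31109 and 40996 in the morphants of cultures 1 to 4, against 30721, 24104, 22648 and 28788 in the control pool. The morphant signal was thus lower only in culture 1 and higher in cultures 2, 3 and 4, and the ratios below 0 in those 3 cultures arose when each array was normalised along its brightness by loess. With every array centred on its median and no loess curve, the ratios were -1.12 in culture 1 and 0.21, 0.17 and 0.27 in cultures 2 to 4, with a mean of -0.12 (adjusted p = 0.798).

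The second probe of Sp-sFRP 04062, equally bright, had log2 ratios of -0.73, 0.08, 0.15 and 0.01. Only culture 1 lay clearly below 0, and the mean was -0.12 ± 0.41 (adjusted p = 0.643 among all probes). The difference between the probes was -0.47 (95% interval -0.82 to -0.12, adjusted p = 0.127), and their mean as 1 value was -0.36 (adjusted p = 0.114). Without culture 2, 3 or 4 the adjusted p of the brighter probe was 0.110, 0.125 and 0.113. Those fits called 1, 0 and 0 of all targets, and 1213, 1219 and 1346 at an unadjusted p under 0.05. Without culture 1 the brighter probe passed (mean -0.54, adjusted p = 0.0399, limma), in a fit that called 887 of all targets. In the authors' deposited table the brighter probe averaged -0.48, which passed (adjusted p = 0.0448 in a limma fit to that table).

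The other Frizzled-related target, Sp-sFRP 11271, had log2 ratios of 0.07, 0.08, 0.14 and 0.15 with its brighter probe, all above 0. The 95% interval was -0.04 to 0.26 and the adjusted p 0.226 (limma). Its second probe gave 0.11, 0.20, 0.17 and 0.16, with a mean of 0.16 ± 0.04 (adjusted p = 0.129 among all probes). Here too the spots were dim: the control channel was well above background on 3 arrays for the one probe and on 1 array for the other, against 7 arrays in the morphant channel for both. Agilent's own ratio put the second probe at 1.32 (adjusted p = 0.0195) and the brighter probe at 0.70, which did not pass.

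The target labelled DICKKOPF 3 PRECURSOR could not be tested. Dickkopf proteins are secreted, and several block the LRP co-receptors of the Wnt pathway, whereas Dickkopf 3 is a divergent member of that family. Its 2 probes were well above background on 2 and 1 of 8 morphant channels and on 0 of 8 control channels. For the brighter probe the morphants' mean log2 level was 6.09 and that of the pool 5.99, too near the background in both for a fold. The log2 ratios of the brighter probe were 0.12, 0.0093, 0.21 and 0.06, with 95% limits of -0.03 and 0.23 (adjusted p = 0.259 in the limma fit with no filter).

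The destruction complex was represented by Sp-Axin and by the target named Glycogen_synthase_. Sp-Axin, the scaffold, had log2 ratios of -0.01, -0.02, -0.02 and 0.12 with its brighter probe. They straddled 0, with 95% limits of -0.15 and 0.18 (adjusted p = 0.877, limma). Its second probe gave -0.0026, 0.03, 0.04 and 0.16, with a mean of 0.06 ± 0.07 (adjusted p = 0.539 among all probes). Sp-Axin was the dimmest of the tested members. The control channel of its probes was well above background on 2 and 1 of 8 arrays and the morphant channel on 6 and 3. Agilent's own ratio, which has no offset, averaged 0.57 ± 0.82 for the brighter probe and did not pass.

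The name Glycogen_synthase_ is cut off in the array files, so it is not settled whether it stands for glycogen synthase kinase 3, of the destruction complex, or for glycogen synthase, an enzyme of sugar storage. Its brighter probe had log2 ratios of -0.17, -0.04, 0.22 and 0.10, on both sides of 0 (95% interval -0.20 to 0.26, adjusted p = 0.829, limma). With median centring and no loess curve its ratios were -0.18, 1.03, 0.91 and 0.69, with a mean of 0.61 that did not pass. Its second probe had -1.44, -1.01, -0.60 and -0.73, below 0 in all 4 cultures and on all 8 arrays, with a mean of -0.95 ± 0.37, or 0.518-fold. Where every kept probe was tested separately, this probe passed (adjusted p = 0.0488), as did 5.32% of all probes. The call was lost with the culture as a random block (adjusted p = 0.0626), with no filter (0.0597) and with an intensity trend (0.118). It was also lost with median centring (mean -0.52, adjusted p = 0.252) and without culture 2, 3 or 4 (adjusted p of 0.145, 0.128 and 0.126). The fit with an intensity trend called 0 of all targets, and those without culture 2, 3 or 4 called 1, 0 and 0. Of 15 alternatives 7 kept the call. Without culture 1 it was kept (mean -0.78, adjusted p = 0.0395), as with Agilent's ratio (-1.33, 0.0289) and an offset of 0 (-1.26, 0.0263). It was also kept in the authors' deposited table (-1.03, 0.0380), with the stricter filter (0.0401) and with no background subtraction (0.0496).

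The 2 probes of Glycogen_synthase_ did not measure the same change. Their difference, brighter minus dimmer, was 1.28, 0.97, 0.83 and 0.83 in the 4 cultures, with a mean of 0.98 (95% interval 0.73 to 1.23). It passed a limma test over the 4082 targets with both probes kept (adjusted p = 0.0324), which 3.36% of targets passed. It was the only one of the 6 measured members to do so. Over all such targets the means of the 2 probes correlated at 0.753 across targets, which are not independent replicates, and 21.3% had opposite signs. Probe sequences were not used here, and what each probe matches was not tested.

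The second Glycogen_synthase_ probe had a low control signal on the same 2 arrays as the brighter Sp-Friz 22916 probe. Its level in the pool was 6.66 and 7.53 on the arrays of cultures 2 and 3 with the morphant in Cy3, and between 8.62 and 9.01 on the other 6. Its ratios on those 2 arrays were -0.36 and -0.26, the nearest to 0. With the morphant in Cy5 only, the mean was -1.22 (adjusted p = 0.0401), and with the morphant in Cy3 only it was -0.68 (adjusted p = 0.114).

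**Figure D3:**
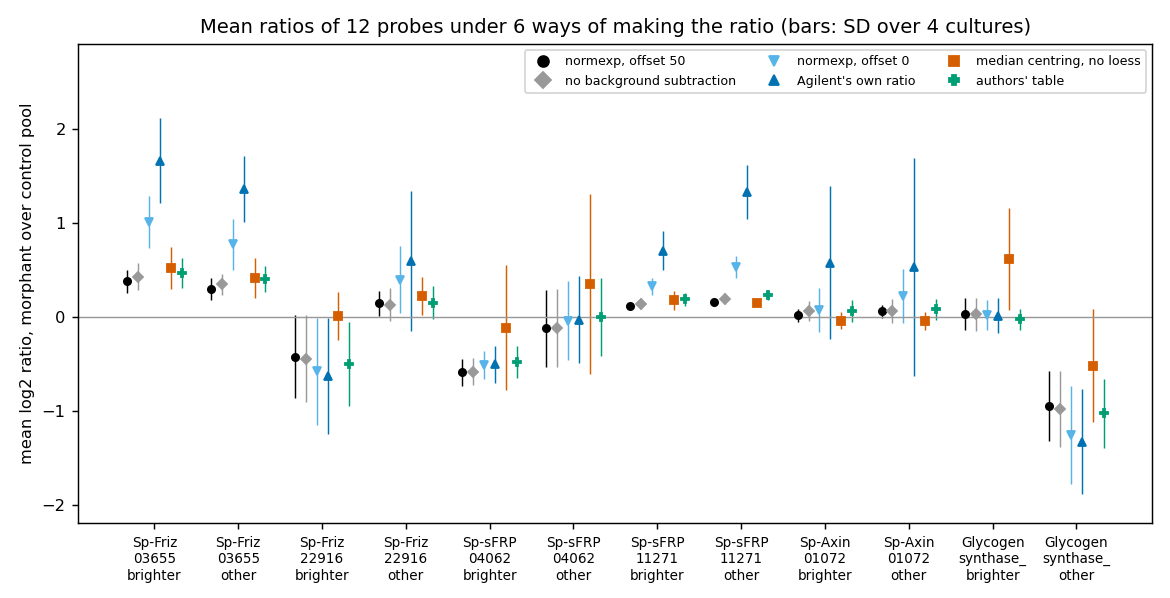
Mean log2 ratio of morphant over control pool (vertical axis) of the 12 measured probes under 6 ways of making the ratio from the same arrays; bars are SDs over 4 cultures. The dim probes of Sp-Friz 03655 and Sp-sFRP 11271 move furthest up with Agilent's ratio, which adds no offset, and median centring, which uses no loess curve, moves both Sp-sFRP 04062 and both Glycogen_synthase_ probes up.

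The other Wnt pathway targets on the array were counted by role. Of the 8 Wnt ligand targets, all measured, 0 passed in either direction. An unadjusted p under 0.05 was found for 2 of them, against 35.3% of all targets. Their median was 0.01. Sp-Wnt6, a ligand, had ratios of 0.47, 0.24, 1.45 and 0.73 in cultures 1 to 4, above 0 in all (mean 0.72 ± 0.53, adjusted p = 0.104, limma). One target named WNT 4 PROTEIN averaged 0.40 ± 0.34 (adjusted p = 0.139). Another WNT 4 target, cited after its value was seen, averaged -0.56 ± 0.69 and was below 0 in 3 cultures (adjusted p = 0.218, limma).

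Of 2 further antagonist targets 1 was measured, WNT INHIBITORY FACT, named for a secreted protein that binds Wnt ligands. Its brighter probe averaged -0.99 ± 0.59 (adjusted p = 0.0735, limma) and its other probe 0.69 (adjusted p = 0.151 among all probes), each with 1 sign in all 4 cultures and in opposite directions. Among the intracellular transducers 5 of 6 were measured, 0 passed in either direction and 3 had an unadjusted p under 0.05, all below 0. At that limit 1933 of all 5481 targets passed (35.3%), 1082 of them below 0, so this count is not read as a property of the list. Their median was -0.22. A casein kinase I, of the family that phosphorylates β-catenin and Dishevelled, had ratios of -0.29, -0.47, -0.27 and -0.31 (mean -0.33 ± 0.09, adjusted p = 0.0574). A target named Disheveled associat averaged -0.22 ± 0.10 (adjusted p = 0.111).

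Targets of β-catenin signalling in the endoderm and mesoderm varied widely between cultures. All 10 were measured, 0 passed, and the median was -0.23 with a median SD of 0.843. An unadjusted p under 0.05 was found for 4 of them, 2 in each direction, against 35.3% of all targets. Sp-Gata 27015, a GATA factor target whose label does not say which GATA factor it is, averaged -0.20 ± 0.07 (adjusted p = 0.108, limma). The other target labelled Sp-Gata, 10635, cited after its value was seen, averaged 0.07 ± 0.07, above 0 in all 4 cultures (adjusted p = 0.444). Sp-Pmar, a repressor gene of the micromere lineage, averaged 0.42 ± 0.30 (adjusted p = 0.108), while its other probe averaged 0.02 (adjusted p = 0.834 among all probes). Of the 3 anterior neuroectoderm genes 0 passed and 2 had an unadjusted p under 0.05, again against 35.3% of all targets. The homeobox gene Sp-rx averaged -1.04 ± 0.58 (adjusted p = 0.0678), and Hbn, another homeobox gene, averaged 0.43 ± 0.37 (adjusted p = 0.136).

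**Figure D4:**
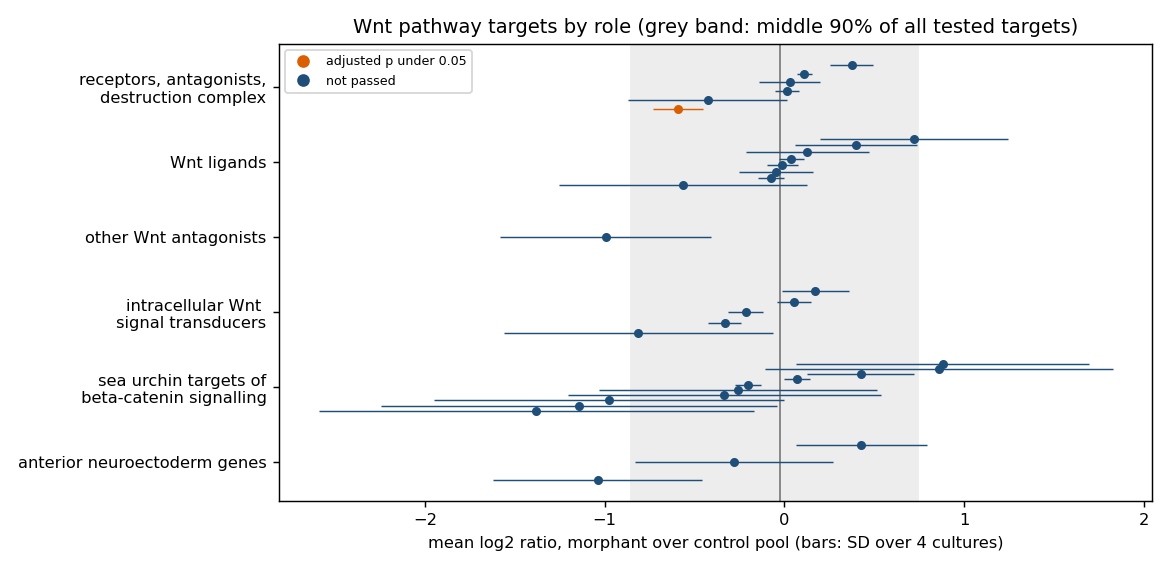
Mean log2 ratio of morphant over control pool (horizontal axis) of each measured Wnt pathway target, grouped by role; bars are SDs over 4 cultures, the grey line is the median of all tested targets and the grey band holds their middle 90%. Sp-sFRP 04062 is the only target shown that passed the test; the targets of β-catenin signalling have the longest bars.

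For the 3 measured members with the largest mean ratios, the targets most like them were sought by the root mean square difference of the 4 culture ratios among 4925 named targets. Nearest to Sp-sFRP 04062 were an ADP-ribos target (difference 0.0848) and Sp-MTG1 (0.0899), which averaged -0.56 and -0.58. Nearest to Sp-Friz 22916 were Sp-Hmg2 (0.102) and Sp-eIF3 (0.104), and nearest to Sp-Friz 03655 were Golgi phosphoprotein 3 (0.0386) and a zinc finger target (0.0482). These differences are on the log2 scale and rest on 4 cultures.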

How the data were processed

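The submitters' processing notes and the file headers name Agilent Feature Extraction 10.7.1.1 as the scanner software. Per the file headers, the deposited scanner files hold unnormalized intensities (mean spot signal and local background in each channel), and a log10 ratio, red over green, made from signals after the software's own background subtraction and dye normalization. The software's 0 or 1 marks for spots well above background, saturated or irregular were used as deposited. The authors' deposited table holds log2 ratios, which correlated at 0.968 to 0.988 with those computed here and were already turned to morphant over control, with column medians of 0.000503 to 0.0248; how it was made is not given in the sources used here. RNA was amplified from oligo dT, per the labels' protocols.

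Signals were corrected by normexp (offset 50), normalized by loess within arrays with 536 control spots at weight 0, turned to morphant over control, and averaged over the 2 dye-swapped arrays of a culture, in R 4.3.3 with limma 3.58.1 and the data.table package (1.17.8). Irregular spots so marked (0 to 32 per array) were dropped. All 8 arrays share 1 slide and 1 scan. Probes well above background in either channel on 4 or more of the 8 arrays were kept, and the brightest kept probe represented its target. Means were tested against 0 with lmFit and eBayes, adjusted over 5481 targets; differences between cultures with an F test with a dye term. The test of the difference between 2 probes of a target was added after seeing the data. The number of arrays limits the precision. The scripts were tested on simulated data.

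Members and lists were chosen with earlier results of these data known. The text names every member with both probes, the Runt probes, from each other list up to 4 targets past the threshold or else the 2 with the smallest p, and the 2 named targets most like each of the 3 members with the largest mean. Alternatives changed the background correction, normalization, filter, probe choice, dye orientation, variance model, threshold and cultures. Array names were not matched to RefSeq, so no sequence is shown.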

Additional observations from a re-analysis of the deposited data

Results flagged for a closer look

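The second Sp-sFRP 04062 probe had 1 culture far from the other 3: its log2 ratio was -0.732 in culture 1, and the gap to the nearest other culture was 0.850 of the whole range. The brighter Sp-Axin probe had a log2 ratio of 0.118 in culture 4, and its gap was 0.918 of the range. Gaps were computed for all 14 member probes. In groups of 4, chance alone marks about 1 in 20 in this way.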

How the results depend on the processing

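Against 274 targets called in all, Agilent's ratio called 839, an offset of 0 called 796, median centring 56 (49 higher, 7 lower), 580 were called in the authors' deposited table, no filter 180, a stricter filter 413, the culture as a random block 1444, every probe separately 509, thresholds of 0.1 and 0.01 gave 1224 and 0, and an intensity trend with robust variances gave 0 (2045 at an unadjusted limma p under 0.05). Leaving out a culture gave 0 to 887. Against 1 member called, there were 2 in the authors' deposited table, with the random block, with every probe separately and at a threshold of 0.1. There were 0 with median centring, the probe mean, the morphant in Cy5 only, the intensity trend and a threshold of 0.01, and 0 to 1 on leaving out a culture. Agilent's ratio and an offset of 0 also called 1, but it was Sp-Friz 03655, which rose, and Sp-sFRP 04062 did not pass (adjusted p = 0.120 and 0.0698, limma). The median over members was 0.293 with Agilent's ratio, 0.090 with median centring, -0.197 with the stricter filter, -0.053 with the probe mean and -0.047 with the morphant in Cy5 only.

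Among the named results, signs turned only in values that had not passed. With median centring, which moved the median of all targets to 0.10, the second Sp-sFRP 04062 probe was at 0.351, the Sp-Axin probes at -0.042 (brighter) and -0.045, the brighter Sp-Friz 22916 probe at 0.0046, Sp-Gata 27015 at 0.085 and the brighter Sp-Runt probe at 0.077. With the morphant in Cy5 only, the second Sp-sFRP 04062 probe was at 0.038, the brighter Sp-Axin probe at -0.025 and the brighter Glycogen_synthase_ probe at -0.068. The last was at -0.026 in the authors' deposited table and at -0.459 as the probe mean. Leaving out a culture gave -0.213 to 0.080 for the second Sp-sFRP 04062 probe, where the value above 0 came without culture 1, -0.018 to 0.028 for the brighter Sp-Axin probe (below 0 without culture 4) and -0.034 to 0.095 for the brighter Glycogen_synthase_ probe (below 0 without culture 3). The cause of these changes was not tested. No paired analysis was possible because each morphant culture was set against 1 common pool. Dim control channels limit the ratios of Sp-Friz 03655, Sp-sFRP 11271 and Sp-Axin.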
